A study of Homo sapiens with 10 samples.

Results

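The binding sites of Smad3 and of TTF-1 were compared in H441 cells, a human lung adenocarcinoma line that expresses TTF-1 per the labels. The comparison rests on 2 chromatin immunoprecipitation sequencing (ChIP-seq) peak lists, chosen by their labels: 8941 Smad3 peaks of cells given a control siRNA (siControl), and 21291 peaks of a TTF-1 library titled 1.5 h. Together these are 30232 of the 79601 peaks in the 7 called lists of the series. Both lists were called at a false discovery rate limit of 1%, and the labels name a common input DNA library for Smad3 and TTF-1 in H441. The treatment text gives 1 ng/ml TGF-β3 for 1.5 h for every sample. This includes the TTF-1 library titled 0 h, so its title and treatment text conflict, and it is called 0 h here by its title only. The title of the TTF-1 1.5 h library names no siRNA, so the cultures behind the 2 lists were not described as handled alike. A further 4 lists served for comparison: TTF-1 titled 0 h, Smad3 and Smad4 in H441 cells depleted of TTF-1 by siRNA (siTTF-1), and Smad3 in A549, a lung adenocarcinoma line labelled TTF-1 negative. These 4 lists hold 31083, 14145, 1605 and 2535 peaks, in that order. Shares of sites that meet them therefore depend on lists of unlike length. The Smad4 list was called at 10% and the A549 list at 5%. The Smad4 siControl list holds 1 peak and was not used.

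Smad3 is phosphorylated by the activated TGF-β receptor, joins Smad4 and enters the nucleus, where it binds short DNA motifs with modest affinity and often beside other transcription factors. TTF-1, also called NKX2-1, is a homeodomain transcription factor that specifies lung and thyroid epithelium and drives surfactant genes. It is kept as a lineage factor in many lung adenocarcinomas. A peak marks a stretch of DNA that was enriched over input in a population of cells, so peaks of 2 factors at 1 place do not show that both sat on the same DNA molecule.

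Each list comes from 1 library. Differences between lists therefore cannot be set against a spread between replicates, and peaks are not replicates of a condition. The 95% intervals given here (exact Clopper-Pearson for shares, Woolf for odds ratios) cover counting error only, and the lists do not give the read depth. All positions are on hg18 and count from 1. No annotation or sequence of that build was used, so sites are named by position without a gene. The peak lists hold no expression values, so the identity of the cells was not checked.

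Most Smad3 peaks lay at a TTF-1 peak, while most TTF-1 peaks lacked Smad3. The contrast goes with the unlike length of the lists, 8941 and 21291 peaks. Cutting both to equal length cannot test it. Overlap was nearly always 1 peak to 1 peak, so a common denominator makes the 2 shares nearly equal. Among the first 8000 peak numbers of each list, 52.9% of Smad3 peaks and 52.0% of TTF-1 peaks met the other factor. The full lists, of unlike length, gave the following shares. Of the 21291 TTF-1 peaks 7296 (34.3%, 33.6 to 34.9) overlapped a Smad3 peak by at least 1 bp, and of the 8941 Smad3 peaks 7350 (82.2%, 81.4 to 83.0) overlapped a TTF-1 peak. When the same Smad3 peaks were moved by 25 kb to either side, 3.12% of 17882 positions met a TTF-1 peak, and 1.32% of 42582 moved TTF-1 positions met a Smad3 peak. The shared stretches came to 4.60 Mb, which is 76.2% of the length of the Smad3 peaks and 32.3% of that of the TTF-1 peaks. Over the 23 chromosomes with at least 100 TTF-1 peaks, the share of TTF-1 peaks with Smad3 ran from 28.2% on chromosome 2 to 39.96% on chromosome 20. The share of Smad3 peaks with TTF-1 ran from 75.3% on chromosome 19 to 88.4% on chromosome 2. Chromosome 2 thus stood at opposite ends, with the lowest share seen from TTF-1 and the highest seen from Smad3. With overlap nearly 1 to 1, the 2 shares of a chromosome are tied to its numbers of peaks. Chromosome 2 held 1934 TTF-1 peaks and 627 Smad3 peaks.

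The overlap was nearly always 1 peak to 1 peak. The lists formed 7408 overlapping pairs, of which 7074 (95.5%) joined a single Smad3 peak to a single TTF-1 peak. Only 57 Smad3 peaks met 2 or more TTF-1 peaks, and these were wide, with a median of 1299 bp against 599 bp for Smad3 peaks that met 1. In the other direction 109 TTF-1 peaks met 2 or more Smad3 peaks, with a median width of 1799 bp against 749 bp for TTF-1 peaks that met 1.

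Which TTF-1 sites carried Smad3 followed their place in the TTF-1 list. The deposited peak number runs from 1 to the length of the list; its meaning is not stated, and peaks with low numbers tend to be wide (Spearman correlation of width and number across TTF-1 1.5 h peaks -0.55, a description). In 5 equal strata of that number, Smad3 was present at 65.8%, 41.9%, 29.9%, 19.7% and 13.9% of the TTF-1 peaks. In 5 strata of width the share rose from 17.6% in the narrowest to 58.1% in the widest. In each stratum of the number, the wider 50% of peaks had Smad3 more often than the narrower 50%. Width and number can still go together inside a stratum, and number was not split within strata of width. Within the first stratum of the number, 59.2% (57.1 to 61.3) of the narrower 50% and 72.4% (70.4 to 74.3) of the wider 50% had Smad3. Within the last stratum these shares were 11.8% (10.5 to 13.3) and 16.0% (14.4 to 17.6).

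Seen from Smad3, the gradient had the same direction. In the 5 strata of the Smad3 peak number TTF-1 was present at 95.9%, 89.3%, 82.1%, 75.6% and 68.1% of the Smad3 peaks. The median Smad3 peak number was 4007.5 with TTF-1 and 6270 without, and the median width was 599 bp and 499 bp. TTF-1 peaks with Smad3 had a median width of 0.749 kb, and those without had 0.549 kb. Partners tended to rank alike, but loosely. Across the 7074 single pairs the Spearman correlation of the 2 peak numbers was 0.36 and that of the widths 0.59 (descriptions, since partners come from the same stretch of DNA). Of the Smad3 peaks in the first stratum with a single partner, 62.3% paired with a TTF-1 peak of the first TTF-1 stratum and 2.6% with one of the last. Of those in the last Smad3 stratum, 21.4% paired with the first TTF-1 stratum and 13.0% with the last.

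TTF-1 peaks in company carried Smad3 more often than isolated ones. Neighbours were counted as other TTF-1 1.5 h peak centres within 25 kb, without those that met the same Smad3 peak. Smad3 was present at 27.5% (26.5 to 28.5) of the 7882 TTF-1 peaks with no neighbour. The share was 35.3% with 1 neighbour, 37.8% with 2, 41.3% with 3 and 46.2% (43.9 to 48.6) with 4 or more. Isolated peaks had the lowest share in each of the 5 strata of the TTF-1 peak number, and peaks with 3 or more neighbours had the highest. In the first stratum the share went from 56.0% (53.3 to 58.6) with no neighbour to 74.2% (71.1 to 77.1) with 3 or more. In the last stratum it went from 11.5% (10.0 to 13.1) to 19.8% (17.0 to 23.0).

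**Figure D1:**
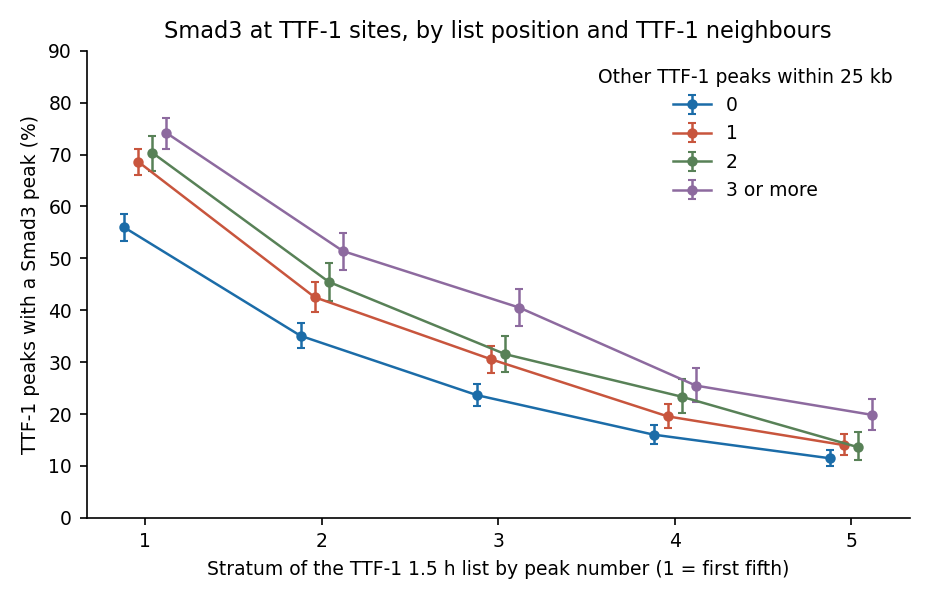
Percentage of TTF-1 1.5 h peaks that overlap a Smad3 siControl peak (y axis) in 5 strata of the TTF-1 peak number (x axis), with 1 line for each number of other TTF-1 peaks within 25 kb; bars are exact 95% intervals. The share falls from the first to the last stratum on every line, and the line for 3 or more neighbours lies above the line for 0 in each stratum.

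The centres of the 2 factors lay close together. In the 7408 overlapping pairs the median distance between peak centres was 50 bp, with quartiles of 25 and 125 bp and a 90th percentile of 250 bp. Positions in the files move in steps of 50 bp, so 50 bp is the resolution of 1 step. Centres coincided in 15.1% of pairs, lay within 50 bp in 57.0% and within 100 bp in 73.5%, and were more than 500 bp apart in 2.3%. The median offset was 7.7% of the mean width of the 2 peaks. For Smad3 peaks moved by 25 kb, the few that then overlapped a TTF-1 peak had a median offset of 375 bp in either direction of the move, which is 51.8% and 50.1% of the mean width.

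Lists of a single factor gave the yardstick for these offsets. TTF-1 0 h and TTF-1 1.5 h centres lay a median of 25 bp apart, with 72.6% of 20535 pairs within 50 bp. Smad3 siControl and Smad3 siTTF-1 centres also lay a median of 25 bp apart, with 67.5% of 7282 pairs within 50 bp. Smad3 and TTF-1 were therefore less tightly aligned than either factor with itself in the same line. They were more tightly aligned than Smad3 in H441 with Smad3 in A549, at a median of 100 bp and 36.9% of 1086 pairs within 50 bp. A549 Smad3 was loosely aligned with TTF-1 1.5 h too, at a median of 100 bp and 29.8% of 1088 pairs within 50 bp. The looser alignment was thus common to both comparisons with the A549 list. H441 Smad3 peaks that met A549 Smad3 were also wider, at a median of 799 bp against 599 bp for those that met TTF-1. Smad3 siTTF-1 centres lay a median of 50 bp from TTF-1 1.5 h centres, with 54.1% of 7739 pairs within 50 bp. Alignment near this level was thus not particular to Smad3 of siControl cells. At the 6854 sites with 1 partner in each TTF-1 list, the Smad3 centre lay farther from the TTF-1 1.5 h centre than the TTF-1 0 h centre did in 48.4% of cases, closer in 30.1%, and at equal distance in 21.6%.

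**Figure D2:**
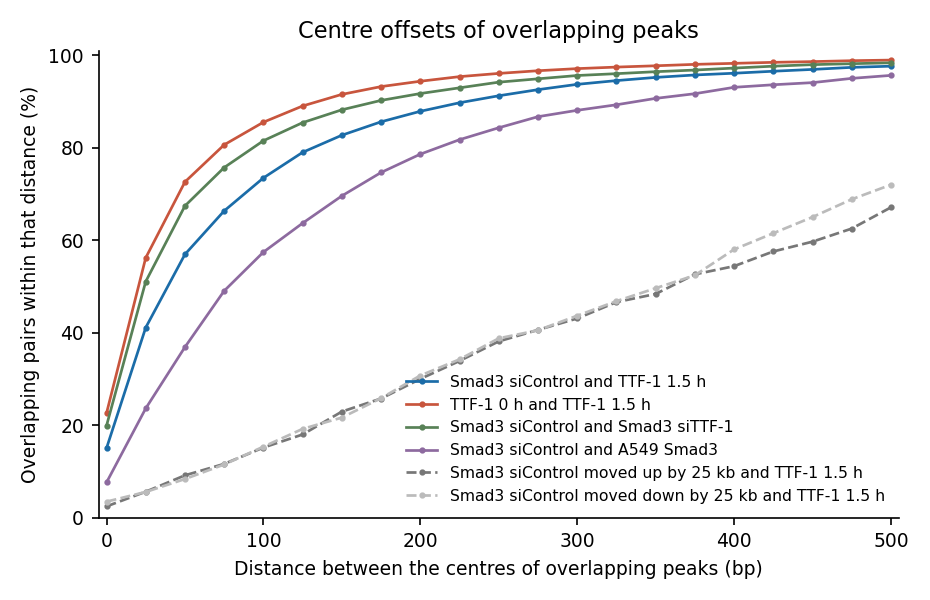
Cumulative percentage of overlapping pairs (y axis) against the distance between their centres in bp (x axis) for 4 pairs of lists and for the Smad3 siControl list moved by 25 kb (dashed). At 50 bp the Smad3 and TTF-1 1.5 h curve stands at 57.0%, below the 2 curves of a single factor in H441 (72.6% and 67.5%) and above the curve of Smad3 in A549 (36.9%).

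Wide Smad3 peaks were less tightly aligned with TTF-1 than narrow ones. The median offset was 50 bp in all 5 strata of the Smad3 peak number and in 4 of 5 strata of Smad3 width, and 75 bp in the widest stratum. The share of pairs within 50 bp fell from 65.6% in the narrowest Smad3 stratum to 43.5% in the widest. By Smad3 peak number it lay between 53.6% and 61.3%, with no steady order.

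The direction of the offset was not quite even. The Smad3 centre lay at the lower coordinate in 3384 pairs and at the higher in 2909 (53.8%, 52.5 to 55.0, of the pairs with an offset), and the mean difference, Smad3 minus TTF-1, was -5.9 bp. The same displacement appeared in other comparisons with the TTF-1 1.5 h list. The mean difference was -6.2 bp for TTF-1 0 h, with 56.3% (55.5 to 57.1) at the lower coordinate, and -6.3 bp for Smad3 siTTF-1, with 53.8% (52.6 to 55.0). H441 comparisons without that list were near balance. The share at the lower coordinate was 49.5% (48.3 to 50.7) for Smad3 siControl against TTF-1 0 h, with a mean of 1.0 bp. It was 51.0% (49.7 to 52.3) for Smad3 siControl against Smad3 siTTF-1, with a mean of -1.1 bp, and 49.5% (48.4 to 50.6) for Smad3 siTTF-1 against TTF-1 0 h, with a mean of 0.34 bp. The smaller A549 list did not separate in this way. Smad3 siControl against A549 Smad3 had a mean of -5.5 bp and 51.5% (48.4 to 54.7), and A549 Smad3 against TTF-1 1.5 h had -3.7 bp and 52.0% (48.9 to 55.1), both shares spanning 50%. The TTF-1 1.5 h peaks thus sat about 6 bp toward higher coordinates relative to the 3 other H441 lists compared, far less than a 50 bp step, and the cause was not tested.

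Most Smad3 peaks lay inside the TTF-1 peak they met. Of the 7408 pairs, 4178 (56.4%) had the Smad3 peak nested in the TTF-1 peak, 1674 (22.6%) had the TTF-1 peak nested in the Smad3 peak, 452 (6.1%) had identical bounds and 1104 (14.9%) were staggered. Nested or identical pairs thus made up 85.1% (84.3 to 85.9). Among overlaps of Smad3 peaks moved by 25 kb, 29.7% of 283 and 32.9% of 286 were nested or identical. The share was 83.9% between the 2 TTF-1 lists, 84.9% between the 2 Smad3 lists of H441 and 71.1% between Smad3 in H441 and in A549. Nesting at this level was therefore not particular to pairs of different factors. Between Smad3 siTTF-1 and TTF-1 1.5 h, 82.6% of pairs were nested or identical, so it was not particular to Smad3 of siControl cells either. The shared stretch was a median of 76.9% of the union of the 2 peaks, against 85.7% for the 2 TTF-1 lists and 83.3% for the 2 Smad3 lists.

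**Figure D3:**
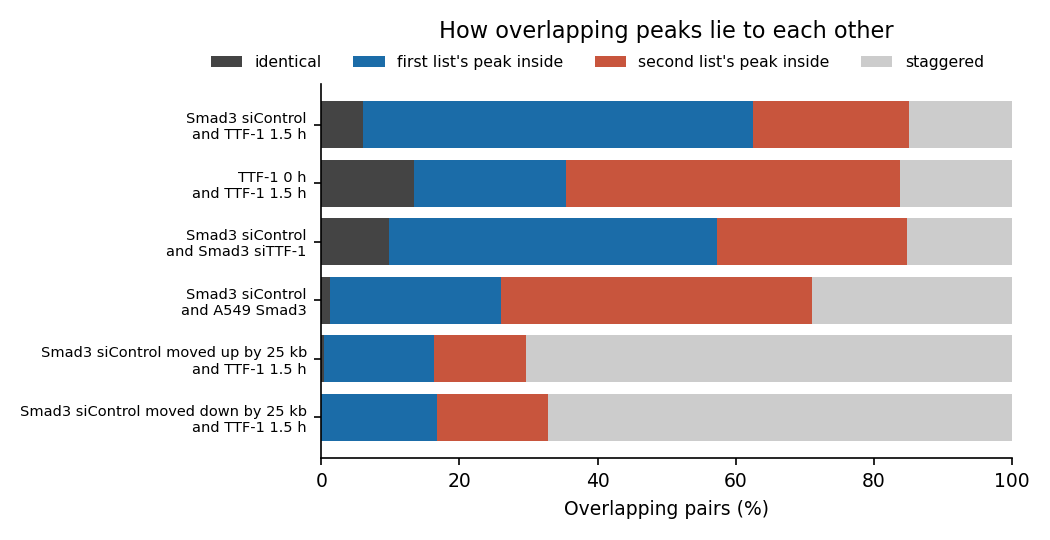
Percentage of overlapping pairs (x axis) that are identical, nested or staggered, for the pairs of lists on the y axis; the first and second list are named in that order. In the top bar 56.4% of pairs have Smad3 inside TTF-1 and 14.9% are staggered, while over 67% are staggered for the moved lists in the 2 bottom bars.

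Nesting followed width. In single pairs the TTF-1 peak was the wider one in 62.2%, the Smad3 peak in 26.8%, and widths were equal in 11.0%. TTF-1 peaks reached beyond the Smad3 peak by a median of 50 bp on each side. The balance shifted along the Smad3 list: in the first stratum Smad3 was inside TTF-1 in 43.8% of pairs and TTF-1 inside Smad3 in 33.6%. In the last, these shares were 68.0% and 11.6%. Median Smad3 width in those pairs fell from 849 to 449 bp, and median TTF-1 width from 849 to 649 bp. At the head of the Smad3 list the 2 factors thus marked stretches of equal median width, and at its tail the TTF-1 peak was the wider. Centres of pairs with TTF-1 inside Smad3 lay a median of 25 bp apart, those with Smad3 inside TTF-1 50 bp and staggered pairs 100 bp.

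TTF-1 peaks were crowded around Smad3 sites, beyond the peak that Smad3 itself met. Smad3 sites with TTF-1 had a mean of 1.55 further TTF-1 centres within 25 kb, and Smad3 sites without TTF-1 had 1.24. TTF-1 sites with Smad3 had 1.55 and TTF-1 sites without Smad3 had 1.17, a ratio of 1.32. No neighbour was found at 29.7% of the TTF-1 sites with Smad3 and at 40.9% of those without, and 3 or more were found at 22.5% and 15.1%. The ratio was above 1 on all 23 chromosomes, from 1.01 on chromosome 19 to 1.91 on chromosome 22. It lay between 1.26 and 1.36 in the 5 strata of the TTF-1 peak number. On the Smad3 side, the ratio of sites with to sites without TTF-1 lay between 1.08 and 1.35 in the 5 strata of the Smad3 peak number.

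With distance the density fell steeply. Between 1 and 2.5 kb from TTF-1 sites with Smad3 there were 61.3 other TTF-1 centres per Mb, 8.7 times the mean of the list over the span of all lists (7.03 per Mb). TTF-1 sites without Smad3 had 42.1 per Mb and Smad3 sites without TTF-1 had 45.5 per Mb at that distance. From 10 to 25 kb the 3 densities were 25.5, 19.8 and 21.5 per Mb, and from 250 to 500 kb they had come together at 10.6, 10.2 and 9.9 per Mb. In the step below 1 kb the densities were lower (27.4, 28.9 and 20.1 per Mb, in the same order of classes), with the peaks themselves at a median width of 599 bp. TTF-1 peaks that met the same Smad3 peak were left out, which lowers only the class with Smad3. Smad3 sites without TTF-1 have no overlapping TTF-1 peak by definition. The 3 classes therefore cannot be compared in this step. Smad3 sites without a TTF-1 peak thus still lay in neighbourhoods about as rich in TTF-1 as those of TTF-1 sites without Smad3.

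**Figure D4:**
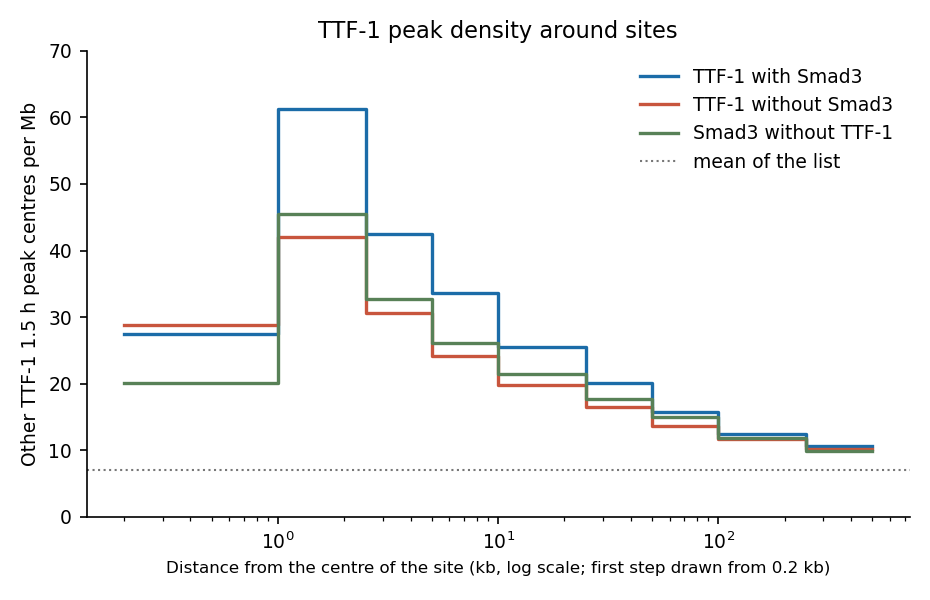
Other TTF-1 1.5 h peak centres per Mb (y axis) in steps of distance from the centre of 3 classes of site (x axis, log scale); the dotted line is the mean of the list, 7.03 per Mb. TTF-1 sites with Smad3 lie above the other 2 classes from 1 kb outward, most at 1 to 2.5 kb (61.3 against 42.1 and 45.5), and the lines converge near 10 per Mb beyond 250 kb.

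Smad3 at 1 TTF-1 peak went with Smad3 at the next one along the chromosome. Of adjacent TTF-1 peaks with centres up to 5 kb apart and no common Smad3 peak, a peak had Smad3 in 49.5% of cases when its neighbour had it and in 34.5% when its neighbour did not. These shares were 43.0% and 34.9% at 5 to 25 kb and 31.3% and 27.5% beyond 100 kb. In 3724 adjacent pairs within 25 kb, 1 peak had Smad3 and the other did not. The peak with Smad3 had the lower TTF-1 peak number in 78.2% (76.9 to 79.6) of them and was the wider in 66.7%, with median widths of 0.749 and 0.549 kb. Adjacent peaks over 100 kb apart gave similar values, 72.7% (70.9 to 74.5) and 68.1%, so the order by number and width was not particular to close neighbours. Adjacent pairs can share a peak and are not independent, so these values are descriptions. Of the 13995 TTF-1 peaks without Smad3, 32.0% had a Smad3 centre elsewhere within 25 kb.

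Smad3 peaks without TTF-1 at 1.5 h numbered 1591. Of these, 657 (41.3%, 38.9 to 43.8) had a peak in the TTF-1 0 h list, against 87.7% of all Smad3 siControl peaks, so 934 Smad3 peaks (10.4%) met neither TTF-1 list. The nearest TTF-1 1.5 h peak lay a median of 15901 bp away, edge to edge. It was within 500 bp at 5.6% of these sites, within 5 kb at 29.2% and within 25 kb at 61.1%. TTF-1 peaks without Smad3 lay a median of 60901 bp from the nearest Smad3 peak, and 32.4% were within 25 kb of one. The Smad3 list is the sparser, at 2.95 against 7.03 peaks per Mb, so these 2 sets of distances cannot be compared directly.

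The other lists gave readouts that the overlap did not use. TTF-1 sites with Smad3 were richer in Smad3 peaks of A549, a line labelled TTF-1 negative: 866 (11.9%, 11.1 to 12.6) had one, against 206 (1.5%, 1.3 to 1.7) of those without and 5.03% of all TTF-1 1.5 h peaks. This is an odds ratio of 9.02 (7.72 to 10.5). Stratified by the TTF-1 peak number it came to 10.7 (9.01 to 12.8). Smad4 siTTF-1 peaks were present at 678 (9.3%, 8.6 to 10.0) and 75 (0.54%, 0.42 to 0.67), against 3.54% of all, an odds ratio of 19.0 (15.0 to 24.2). Smad3 siTTF-1 peaks were present at 79.8% (78.8 to 80.7) and 13.0% (12.5 to 13.6), against 35.9% of all. By stratum of the TTF-1 peak number, TTF-1 sites without Smad3 had a Smad3 siTTF-1 peak in 7.5%, 10.8%, 14.8%, 14.4% and 13.9% of cases, lowest at the head of the list. In all, 1820 TTF-1 sites without Smad3 in siControl cells had a Smad3 peak in siTTF-1 cells. The siTTF-1 list is the longer of the 2, with 14145 peaks against 8941. The A549 and Smad3 siTTF-1 lists were made with the same Smad3 antibody lot as the siControl list, per the labels.

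TTF-1 at 0 h hardly distinguished the 2 classes of TTF-1 site. Sites with Smad3 had it in 97.6% of cases (97.2 to 97.9) and sites lacking Smad3 in 94.9% (94.5 to 95.2), against 95.8% of all TTF-1 1.5 h peaks. The odds ratio of 2.18 (1.85 to 2.58) turned to 0.80 (0.67 to 0.96) within 5 strata of the TTF-1 peak number, so its direction depended on whether list position was taken into account. Within 5 strata of TTF-1 width it was 1.23 (1.03 to 1.46). In the last stratum the shares were 84.5% (81.3 to 87.3) with Smad3 and 86.1% (84.98 to 87.2) without.

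Seen from Smad3, sites with and without TTF-1 differed less in the other Smad lists. A Smad4 siTTF-1 peak lay at 9.3% (8.6 to 10.0) of the Smad3 peaks that met TTF-1 and at 13.9% (12.2 to 15.7) of the Smad3 peaks that did not, against 10.1% of all Smad3 siControl peaks. That gives an odds ratio of 0.63 (0.54 to 0.74), or 0.33 (0.28 to 0.40) when stratified by the Smad3 peak number. A549 Smad3 peaks stood at 11.7% and 13.3%, against 11.9% of all; the odds ratio of 0.86 (0.73 to 1.01) spanned 1, and within strata of the Smad3 peak number it was 0.53 (0.44 to 0.63). Smad3 siTTF-1 peaks stood at 79.3% (78.4 to 80.2) and 87.6% (85.8 to 89.1), against 80.8% of all, an odds ratio of 0.55 (0.46 to 0.64), or 0.30 (0.26 to 0.36) when stratified in the same way.

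At shared sites the place of the TTF-1 peak in its list went with whether Smad3 was called after TTF-1 depletion. Among the 7074 single pairs, a Smad3 siTTF-1 peak was present at 72.3% (70.6 to 74.0) of those with a TTF-1 peak of the first stratum. The shares in the next 4 strata were 80.1%, 84.5%, 88.0% and 88.2% (85.3 to 90.8), against 80.8% of all Smad3 siControl peaks. The order was thus opposite to that of the Smad3 list, where early peaks were the ones most often called again. Both gradients appeared together when pairs were split by both lists. Of the 251 pairs with a Smad3 peak of the last stratum and a TTF-1 peak of the first, 28.3% (22.8 to 34.3) had a Smad3 siTTF-1 peak. With TTF-1 of the last stratum as well, the share was 79.6% (72.3 to 85.7) of 152 pairs. In the first Smad3 stratum it was 93.5% (91.8 to 94.97) with TTF-1 of the first stratum and 43 of 43 with TTF-1 of the last. First against last TTF-1 stratum, this is an odds ratio of 0.35 (0.27 to 0.46), or 0.12 (0.092 to 0.17) when stratified by the Smad3 peak number. This comparison was added after its values were seen, and each condition has 1 library.

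**Figure D5:**
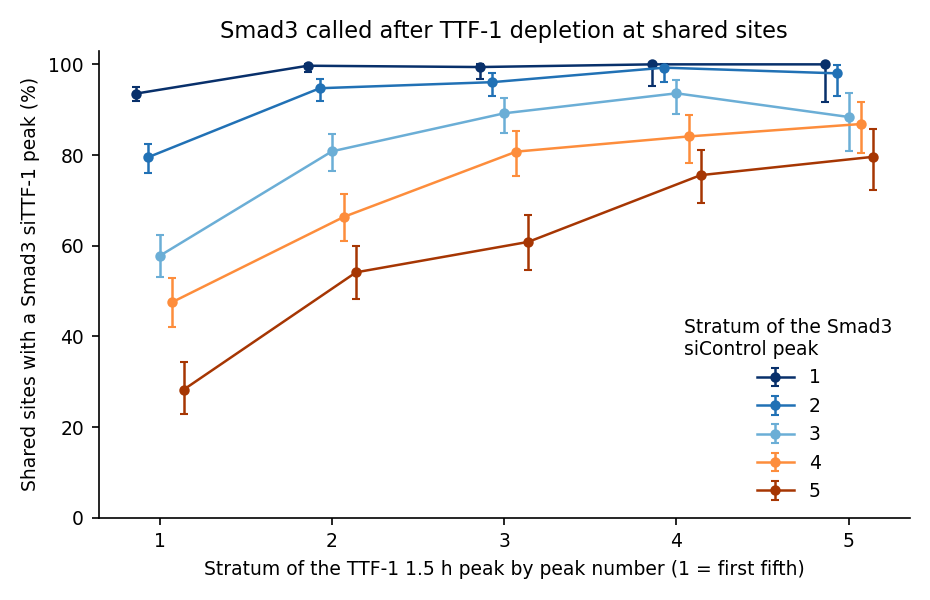
Percentage of single Smad3 and TTF-1 pairs with a Smad3 peak in siTTF-1 cells (y axis) by stratum of the TTF-1 1.5 h peak number (x axis), with 1 line for each stratum of the Smad3 siControl peak number; bars are exact 95% intervals. Each line is lowest at TTF-1 stratum 1, from 93.5% for Smad3 stratum 1 down to 28.3% for Smad3 stratum 5.

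For the other Smad lists these odds ratios lay nearer 1. A549 Smad3 peaks were present at 10.0% (8.9 to 11.2) of the pairs with TTF-1 of the first stratum and at 14.1% (11.3 to 17.3) of those with the last, an odds ratio of 0.68 (0.52 to 0.89). Smad4 siTTF-1 peaks were present at 8.2% (7.2 to 9.3) and 9.5% (7.2 to 12.2), and the odds ratio of 0.86 (0.63 to 1.18) spanned 1. Over all Smad3 siControl peaks the shares were 11.9% for A549 Smad3 and 10.1% for Smad4 siTTF-1. Within 5 strata of the Smad3 peak number both odds ratios lay below 1, at 0.29 (0.21 to 0.40) for A549 Smad3 and 0.34 (0.23 to 0.49) for Smad4 siTTF-1.

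Single sites show the range of arrangements. The first 3 Smad3 peaks by number all had TTF-1, as did 95.9% of the first stratum of the Smad3 peak number. Smad3 peak number 1, on chromosome 5 (135383451 to 135384749), covered 2 TTF-1 peaks, number 541 (135384001 to 135384699) and the late and narrow number 17309 (135383551 to 135383749). Smad3 peak number 2, on chromosome 1 (184423301 to 184424949), and TTF-1 peak number 206 (184423301 to 184424899) started at the same base, with centres 25 bp apart. Smad3 peak number 3, on chromosome 12 (45774701 to 45776549), held TTF-1 peak number 256 (45775651 to 45776549) at its upper end, with centres 475 bp apart.

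The widest Smad3 peaks with TTF-1 covered far more than the TTF-1 peaks in them. On chromosome 14, 2 Smad3 peaks stood next to each other, of 6699 bp (36054751 to 36061449, number 2073) and 3949 bp (36050751 to 36054699, number 2351). The wider one held the TTF-1 peaks numbered 20258 (36055551 to 36056099) and 16494 (36058401 to 36058949). The other held TTF-1 peaks number 1899 (36052601 to 36053249) and 21009 (36051701 to 36051899). The pair with number 20258 had the largest centre offset of all Smad3 and TTF-1 1.5 h pairs, 2275 bp. Next in width was a Smad3 peak of 3849 bp on chromosome 16 (3010351 to 3014199, number 41), which held a TTF-1 peak of 699 bp (3012051 to 3012749) with centres 125 bp apart. Smad3 peak number 3203 on chromosome 11 (109570401 to 109572849) was the only one to meet 3 TTF-1 peaks.

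Wide TTF-1 peaks gave the next largest offsets. On chromosome 19 a 299 bp Smad3 peak (4325751 to 4326049) lay near the end of a TTF-1 peak of 3249 bp (4325701 to 4328949), with centres 1425 bp apart. On chromosome 10 a 649 bp Smad3 peak (116099301 to 116099949) lay at the end of the widest TTF-1 peak of the list, 3799 bp (116096301 to 116100099), also 1425 bp from its centre. Both TTF-1 peaks met a further Smad3 peak.

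Sites without a partner included early-listed and wide ones. The first Smad3 peaks without TTF-1 at 1.5 h were number 139 on chromosome 13 (30301251 to 30301899), number 399 on chromosome 20 (55701351 to 55704449) and number 444 on chromosome 1 (16712801 to 16713399). Each was called again for Smad3 in siTTF-1 cells, and numbers 139 and 444 also met TTF-1 of the 0 h list. Of all Smad3 peaks without TTF-1 at 1.5 h, 87.6% and 41.3% did so. The widest were a peak of 5999 bp on chromosome 12 (12761501 to 12767499) and a pair of 5849 bp, on chromosome 11 (65021451 to 65027299) and on chromosome 3 (4998801 to 5004649). TTF-1 0 h, Smad3 siTTF-1 and A549 Smad3 were called at each of them, against 41.3%, 87.6% and 13.3% of all Smad3 peaks without TTF-1. These sites were picked for their width, beside a median of 499 bp in that class. Among TTF-1 peaks without Smad3, the widest was one of 2549 bp on chromosome 13 (94685751 to 94688299). Peaks of 2499 bp followed on chromosome 9 (81603101 to 81605599) and on chromosome 8 (126688001 to 126690499). TTF-1 was called there at 0 h too, and no Smad list tested had a peak at any of the 3. Of all TTF-1 peaks without Smad3, 94.9% had a TTF-1 0 h peak. Smad3 siTTF-1 peaks lay at 13.0% of them, Smad4 siTTF-1 at 0.54% and A549 Smad3 at 1.5%.

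The most crowded Smad3 sites had Smad3 at several TTF-1 peaks, at least 1 of them by the choice of the window. The 3 Smad3 peaks with the most TTF-1 centres within 50 kb, 15 each, were numbers 73 (65186151 to 65187299) and 1670 (38168501 to 38168949), both on chromosome 15, and number 2565 on chromosome 22 (35100551 to 35101199). Smad3 was present at 8, 11 and 8 of those 15 TTF-1 peaks, beside 34.3% of all TTF-1 peaks and 46.2% of those with 4 or more neighbours within 25 kb, and the same windows held 7, 10 and 8 Smad3 centres.

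The head of the TTF-1 1.5 h list held sites seen in no other list tested. The first TTF-1 peaks without Smad3 were numbers 1, 2 and 21, and all 3 lay within 6 kb of each other on chromosome 15 (41270851 to 41271349, 41268651 to 41268999 and 41273851 to 41274549). They belong to a cluster of 7 TTF-1 peaks over 9599 bp (41264951 to 41274549), the others being numbers 51, 63, 247 and 602. None of the 7 overlapped a peak of the TTF-1 0 h list or of any Smad list tested. They were the only 7 of the 4259 peaks in the first stratum without a TTF-1 0 h peak. Leaving the cluster out changed the share of TTF-1 peaks with Smad3 only from 34.27% to 34.28%. The cluster was singled out after its values were seen, and its origin was not tested.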

How the data were processed

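Per the labels, peaks of single libraries were called at the false discovery rate limits given above. Per the submitters' processing notes, positions are on hg18. For aligner and peak caller, names were not given in the sources used here. The deposited score was 1000 in every line and was not used. Ends were used as deposited, 1 was added to starts, 1 header line was skipped, and 3 derived Smad3 subsets were not used.

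Overlap, centre offset, nesting and neighbour counts were computed with Python 3.11.15, NumPy 2.4.6 and SciPy 1.17.1, and figures with matplotlib 3.10.9. The code was tested on simulated data and against bedtools. Strata are 5 equal parts of a list. Stratified odds ratios are Mantel-Haenszel ratios. Moves of 25 kb served as background. The sites named are the 3 of lowest peak number and the 3 widest of each class, the 3 with the most TTF-1 peaks in them or within 50 kb (at least 1 Mb apart), and the 3 largest offsets. The lists compared, the tests and this rule were chosen with earlier results of these data known. Planned gene counts were not run, since no hg18 annotation was used.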

Additional observations from a re-analysis of the deposited data

How the results depend on the processing

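Of 7 main values, the median offset stayed at 50 bp under all alternatives run, and the neighbour ratio between 1.23 (within 100 kb) and 1.36 (within 10 kb). The share of TTF-1 peaks with Smad3 was 30.6% with centres within 200 bp, 35.8% with edges within 500 bp, 31.9% for the wider 50% of each list, 52.0% for the first 8000 peak numbers of each list, and 25.1% with the TTF-1 0 h list. Under these settings the share of Smad3 peaks with TTF-1 was 72.8%, 83.2%, 76.2%, 52.9% and 87.7%, and the nested share 86.5%, 77.7%, 79.7%, 87.4% and 86.1%. Requiring 50% of the shorter peak, autosomes only, merging peaks within 500 bp and leaving out the chromosome 15 cluster moved none of these beyond its 95% interval. The odds ratio for TTF-1 0 h turned from 2.18 to 0.80 within strata of the TTF-1 peak number, with 1.23 within strata of TTF-1 width, and the cause was not tested. That for A549 ranged from 7.18 to 11.3. The odds ratio for Smad3 siTTF-1 at shared sites, first against last TTF-1 stratum, ranged from 0.12 to 0.46 under 6 alternatives added after seeing the data. Moved Smad3 peaks met TTF-1 in 3.81% of cases at 10 kb and 1.94% at 100 kb. The setting with the first 8000 numbers keeps most of the 8941 Smad3 peaks but only the head of the 21291 TTF-1 peaks. It gives both shares the same denominator, so it cannot test the contrast between them. Read depth and calling limits could not be varied.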
